A study of Mus musculus with 2 samples.

Results

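The genes described here build the matrix around cells or hold cells to it: the collagens, the laminin chains, nidogen 1 and nidogen 2, perlecan (Hspg2) and the integrins. They were chosen by symbol, as every row that starts with Col, a number, a and a number, with Lama, Lamb or Lamc and a number, with Itga, or with Itgb and a number, plus Nid1, Nid2 and Hspg2. This gave 86 genes of the 27729 with a row in both count tables. Of these, 55 were matrix genes and 27 were integrin chains. The other 4 matched by name alone: Itgb1bp1, Itgb1bp2 and Itgb3bp encode proteins named for binding integrin tails, and Col4a3bp encodes the ceramide transporter. Another 3 genes, Col2a1, Col9a1 and Col22a1, had 1 UMI each in 1 table and no row in the other, and were left out.

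The data are single-cell transcriptomes of mouse pancreatic islets, prepared by RevGel-seq, in which each cell is bound to a barcoded bead and the pairs are held apart in a gel while the cells are lysed. Both libraries came from control islets of C57BL/6J mice aged 8 weeks. The mice were male, and their islets were released by collagenase, picked by hand and dissociated with trypsin-EDTA. They are technical replicates of 1 islet preparation with 10000 input cells each, so the spread between them holds no difference between animals. Library 1 held 735 cells with 15931154 UMIs (unique molecular identifiers, each standing for 1 captured transcript) and library 2 held 748 cells with 17440292.

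Basement membranes are thin sheets of matrix that lie under epithelia and around capillaries. Their core is a network of collagen IV, made of trimers of alpha chains, and a network of laminins, each a trimer of 1 alpha, 1 beta and 1 gamma chain, with nidogens and perlecan joining both. Cells grip these sheets through integrins, which are pairs of an alpha and a beta chain at the cell surface. Mouse islets are threaded by capillaries, and the endocrine cells lie against the capillary basement membrane.

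Cells were grouped by the hormones that made up at least 1% of their UMIs, with Ins1 and Ins2 added as insulin. Insulin alone marked 182 cells in library 1 and 190 in library 2. Glucagon alone marked 182 and 174, somatostatin alone 35 and 23, and pancreatic polypeptide alone 54 and 68. Glucagon with pancreatic polypeptide was found in 65 and 86 cells, somatostatin with pancreatic polypeptide in 77 and 71, and other mixtures in 49 and 44. The remaining 91 and 92 cells were hormone-free. Levels are given as CPM, the UMIs of a gene per 1000000 UMIs of all genes but the 5 hormone genes, which differ between these groups by construction. Values in the form of 2 numbers are always library 1 first and library 2 second.

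Hormone-free cells were split by marker UMIs into endothelial-like (27 and 33 cells), mesenchymal-like (7 and 2), lymphoid-like (27 and 22), myeloid-like (11 and 16), ductal-like (9 and 10) and endocrine-like cells (5 and 7), with 5 and 2 unassigned. The 12 endothelial markers summed to 27667 and 25576 CPM in the endothelial-like cells, with all 12 present. They summed to at most 692 CPM in any hormone group. The 12 mesenchymal markers summed to 34187 and 39954 CPM in the mesenchymal-like cells, which are only 9, so that values of this class rest on very few cells. The endocrine-like class differed between libraries, since its 9 endocrine markers summed to 66958 CPM in library 1 and 15754 in library 2. The 6 Schwann markers summed to 0 and 364 CPM in this class, with all 6 present in library 2, and to at most 99.7 CPM in every other group or class. The labels call every cell a pancreas islet cell, and all 9 endocrine markers were present in every hormone group, while the acinar list of the exocrine pancreas summed to between 7.38 and 312 CPM in the hormone groups.

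The promoters of 4 members are shown because their transcripts were high in different islet cells: Nid1 in endothelial-like and mesenchymal-like cells, Col6a6 in insulin and mesenchymal-like cells, Col27a1 in glucagon and somatostatin cells, and Lama2 in glucagon and mesenchymal-like cells. They are RefSeq windows on GRCm38.p6 that end at the annotated start of transcription, cut back where GENCODE M21 has an exon, and they read in the direction of the gene. Capitals mark a GC box, spelled GGGCGG. They also mark a CCAAT box, read here by those letters alone. The last motif in capitals is an ETS core, spelled CCGGAA, and each motif was searched on both strands.
Nid1, chr13:13437352-13437550, plus strand: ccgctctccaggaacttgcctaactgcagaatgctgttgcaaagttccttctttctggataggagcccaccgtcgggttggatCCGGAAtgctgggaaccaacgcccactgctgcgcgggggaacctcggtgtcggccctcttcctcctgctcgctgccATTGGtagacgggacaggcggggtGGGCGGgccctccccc
Col6a6, chr9:105828161-105828335, minus strand: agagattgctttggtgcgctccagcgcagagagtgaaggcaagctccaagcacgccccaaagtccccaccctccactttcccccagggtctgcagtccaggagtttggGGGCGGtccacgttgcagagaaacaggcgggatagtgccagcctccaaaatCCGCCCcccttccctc
Col27a1, chr4:63215162-63215411, plus strand: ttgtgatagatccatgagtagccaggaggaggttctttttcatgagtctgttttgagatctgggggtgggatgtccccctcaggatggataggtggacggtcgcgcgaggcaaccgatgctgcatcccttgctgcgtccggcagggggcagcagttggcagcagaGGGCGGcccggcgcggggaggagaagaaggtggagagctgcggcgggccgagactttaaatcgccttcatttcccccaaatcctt
Lama2, chr10:27616943-27617192, minus strand: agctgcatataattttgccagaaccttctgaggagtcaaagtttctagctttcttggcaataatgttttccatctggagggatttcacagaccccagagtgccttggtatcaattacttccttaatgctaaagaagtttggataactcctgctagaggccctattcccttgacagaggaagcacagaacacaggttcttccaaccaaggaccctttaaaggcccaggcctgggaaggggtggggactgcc
The windows of Nid1 and Col6a6 lie before the gene, whereas those of Col27a1 and Lama2 lie within the GENCODE gene, in bases with no annotated exon. A promoter window of 250 bases was given for 62 of the 86 members. A GC box was found in 31 of the 62 and in 32.9% of 27018 windows of all genes, a CCAAT box in 16 and in 34.5%, and an ETS core in 4 and in 12.2%. A TATA box, spelled TATAAA, was found in 5 of the members' windows and in 13% of all. A FOXA core, spelled TGTTTAC, was found in 1 and in 3.09% of all. The Lama2 window held none of these letters. Such matches describe the sequence only.

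Most matrix UMIs came from cells without hormone, above all from endothelial-like cells. Most integrin UMIs came from hormone cells, but hormone-free cells held more of them than their share of all non-hormone UMIs. Hormone-free cells were 12.4% and 12.3% of cells and gave 13.5% and 16.8% of non-hormone UMIs. They gave 64.9% (95% exact binomial interval 63.9 to 65.8) and 71.6% (70.8 to 72.4) of the UMIs of the 55 matrix genes. Of the integrin UMIs they gave 33.2% (32.1 to 34.2) and 41.0% (40.0 to 42.1). Endothelial-like cells, which were 3.67% and 4.41% of cells, alone gave 46.4% and 64.7% of matrix UMIs. For the basement membrane genes together, collagen IV, collagens VII, XV and XVIII, laminins, nidogens and perlecan, their part was 64.2% and 80.9%. These intervals cover counting error only, and the shares of the libraries differ by more than them. Endothelial-like cells held 433328 non-hormone UMIs in library 1 and 803577 in library 2. The mesenchymal-like part went the other way, at 7 cells with 14.7% of matrix UMIs in library 1 and 2 cells with 2.03% in library 2. The part of either class in the difference between libraries was not tested.

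The groups of matrix genes differed in their sources. Collagen IV came mostly from endothelial-like cells, at 68.6% and 87.9% of its UMIs, and laminin beta chains at 66.9% and 86.1%. Nidogens and perlecan stood at 70.8% and 84.7% there. Laminin gamma chains were split, with 49.9% and 41.6% of their UMIs in hormone cells. Fibrillar collagens, the family that builds the fibres of connective tissue, came mostly from hormone cells, at 68.2% and 82.0%, and glucagon cells alone held 30.9% and 37.4%. This share is that of the family together, which includes Col27a1 and Col1a2, and does not hold for each of its genes. Of 908 single-hormone cells, 140 had a UMI of Col1a2 and 3 had one of Col1a1. Among integrins, the collagen-binding alpha chains were mostly endothelial-like, at 53.0% and 75.5%, whereas 80.1% and 81.0% of the RGD-binding alpha chains and 73.2% and 64.3% of the beta chains were in hormone cells. Hormone-free cells gave 13.5% and 16.8% of all non-hormone UMIs. Hormone cells therefore held less of each group of genes named here than of all non-hormone UMIs.

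**Figure D1:**
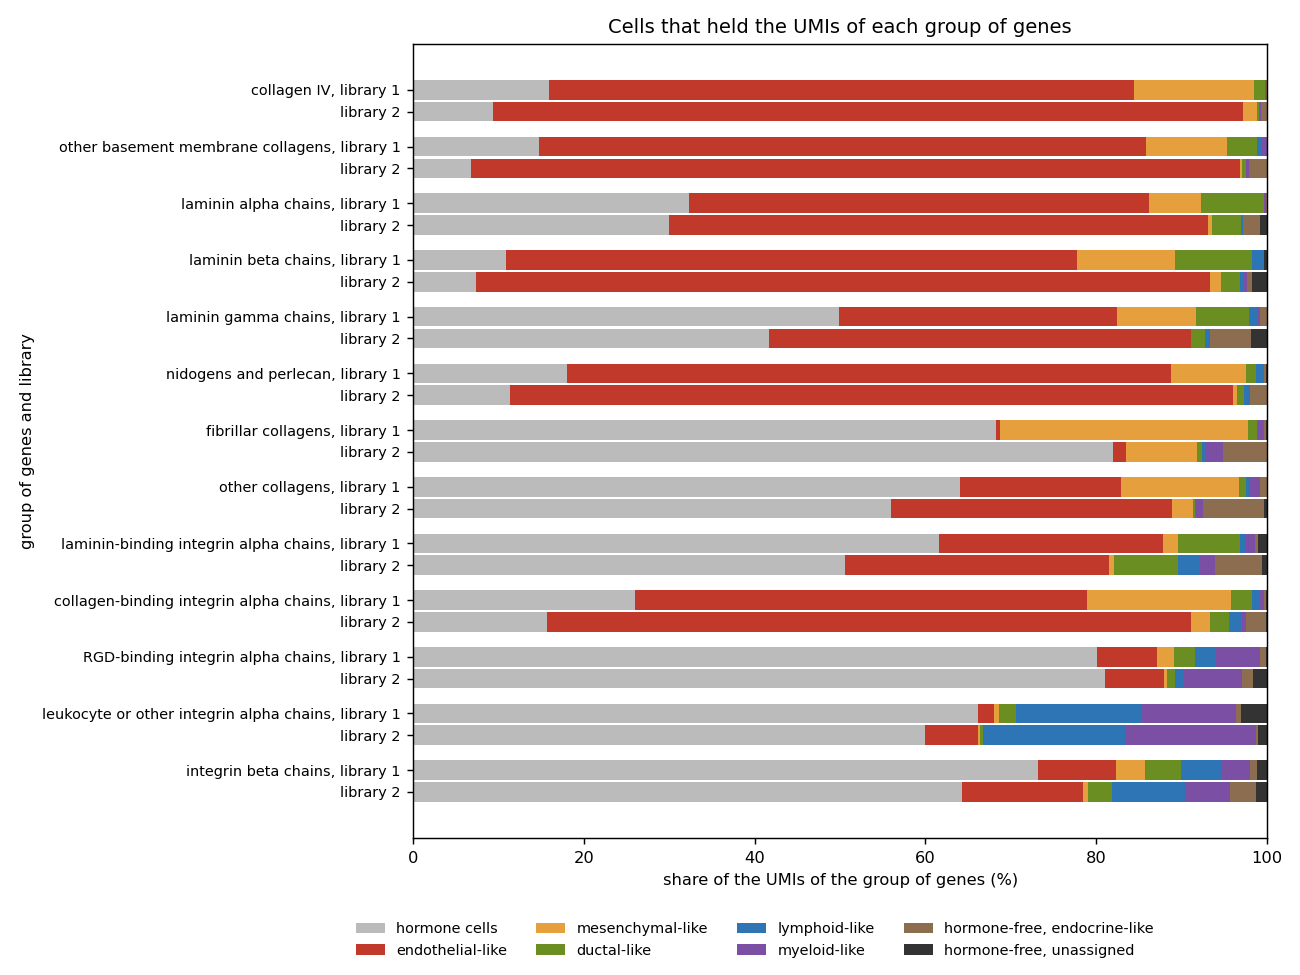
Share of the UMIs of each group of genes (x axis, percent) by the cells that held them (colours), with 1 bar per library. Collagen IV, laminin beta chains, nidogens and perlecan and collagen-binding integrins are mostly endothelial-like, with 68.6% and 87.9% for collagen IV, and RGD-binding alpha chains are mostly in hormone cells, at 80.1% and 81.0%. Of all non-hormone UMIs, hormone-free cells gave 13.5% and 16.8% and hormone cells the rest.

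Hormone-free cells were compared with the mean of the 4 single-hormone groups by edgeR's quasi-likelihood test on UMIs summed per group and library, with Benjamini-Hochberg adjustment over all 14482 genes tested. Of the 86 members, 60 passed the filter on low counts. Among them, 42 were higher in hormone-free cells, beside 34.9% of all genes tested, and 3 were lower, beside 25.5%. The filter itself favours such a result, because 18 of the 60 reached 10 UMIs in 1 group only, and in 16 of these that group was the hormone-free cells. The 26 untested members had between 2 and 77 UMIs in all cells. By kind, 24 of 34 tested matrix genes were higher and 2, Col11a2 and Col20a1, were lower, with a median log2 fold change of 4.96. Of 23 tested integrin chains 18 were higher and 0 lower, with a median of 3.67. Over all genes tested the median was 0.10. Without the members that passed through 1 group only, 15 of 24 matrix genes were higher and 2 lower, with a median of 3.38, and 11 of 15 integrin chains were higher and 0 lower, with a median of 2.13. The p-values measure the spread between technical replicates.

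Collagen IV was high in endothelial-like and mesenchymal-like cells. Col4a1 encodes the alpha1 chain of its common trimer, and the gene lies on chromosome 8 from 11198423 to 11312826 on the minus strand, head to head with Col4a2, which encodes the alpha2 partner. Col4a1 stood at 901 and 822 CPM in hormone-free cells. It was 2709 and 2150 CPM in the endothelial-like and 2480 and 1437 in the mesenchymal-like cells. It was higher in hormone-free than in single-hormone cells by 5.64 on the log2 scale (SE 0.27, edgeR adjusted p = 2.9e-11). All 60 endothelial-like cells had a UMI of Col4a1 and a UMI of Col4a2. None of the lymphoid-like cells had one of Col4a1 (0 of 49 cells, which allows a share of up to 6.12%). Reads of these genes could be shared where they overlap other annotated genes, as Col4a1 overlaps Gm44716 on its own strand and Col4a2 and Gm15418 on the other, since the strand setting of the counting is not given in the sources used here.

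The partner chain followed it. Col4a2 stood at 1364 and 1159 CPM in endothelial-like, 1014 and 862 in mesenchymal-like and 18.9 and 5.81 in ductal-like cells. In hormone-free against single-hormone cells its pooled level was 444 against 4.80 CPM, a ratio of 92.4 (95% counting interval 72.5 to 120). The alpha3 and alpha4 chains, which belong to another collagen IV trimer best known from the kidney filter and lung, were found in both classes. Col4a3 was 62.3 and 44.8 CPM in endothelial-like and 39.4 and 192 in mesenchymal-like cells, the latter from 8 UMIs in 3 cells. Col4a4 was 108 and 67.2 CPM in endothelial-like and 157 and 0 in mesenchymal-like cells, and 15 of the 28 endothelial-like cells with a UMI of Col4a3 had one of Col4a4. Of the 5 tested collagen IV genes Col4a3 passed the filter through the hormone-free cells alone, and the other 4 were higher in hormone-free cells, beside 34.9% of all genes.

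Laminin chains were spread over more cells. Lama4, the alpha chain typical of vessel walls, was 519 and 457 CPM in endothelial-like, 207 and 144 in mesenchymal-like and 151 and 55.2 in ductal-like cells. It had 14 UMIs in all single-hormone cells together, and the ratio of pooled levels was 187 (111 to 345). Lama4 passed the filter on low counts through the hormone-free cells alone, the group in which it was high. Lama5, the other alpha chain of endothelial laminins, was 254 and 259 CPM in endothelial-like cells and stood between 0.421 and 22.0 CPM in the single-hormone groups. The difference from hormone-free to single-hormone cells was 3.49 on the log2 scale (SE 0.23, edgeR adjusted p = 1e-09). Lamb1 was 547 and 530 CPM, Lamb2 was 503 and 424 and Lamc1 was 399 and 431 in endothelial-like cells, each with similar values in both libraries. Lamb2 was as high in the mesenchymal-like cells, at 492 and 431 CPM, and was 179 and 29.1 CPM in ductal-like cells, where 77.6% of its UMIs were in 3 cells. Lamc1 was the laminin gene that single-hormone cells also carried throughout, between 8.84 and 28.1 CPM in each of their sums. It was still higher in hormone-free cells by 3.27 on the log2 scale (SE 0.22, edgeR adjusted p = 1.9e-09).

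Complete laminin sets were seen cell by cell. At least 1 alpha, 1 beta and 1 gamma chain had a UMI in 26 of 27 endothelial-like cells of library 1 and in 33 of 33 of library 2. Of insulin cells this held for 2 of 182 and 0 of 190, and of glucagon cells for 0 of 182 and 1 of 174. The low levels in hormone cells make such joint detection rare, so these counts describe what was captured in single cells. Of the 9 mesenchymal-like cells 6 had all 3 kinds of chain, all of them in library 1. Complete sets were also seen in 5 of 9 and 2 of 10 ductal-like cells, in 0 of 5 and 2 of 7 endocrine-like cells, and in 1 of 35 and 0 of 23 somatostatin cells.

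The linkers of the networks were high in the same classes. Nid1 was 766 and 866 CPM in endothelial-like and 709 and 287 in mesenchymal-like cells, and hormone-free cells exceeded single-hormone cells by 5.21 on the log2 scale (SE 0.28, edgeR adjusted p = 9.2e-11). Nid2 was 78.5 and 69.7 CPM in endothelial-like cells and had 0 UMIs in the 9 mesenchymal-like cells, which allows up to 24.5 CPM. Hspg2, perlecan, was 921 and 876 CPM in endothelial-like, 226 and 95.8 in mesenchymal-like and 37.8 and 40.7 in ductal-like cells. All 60 endothelial-like cells had a UMI of Hspg2, and after thinning each cell to 3000 non-hormone UMIs a share of 91.2% in library 2 would be expected to have one.

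Collagens at the edge of the basement membrane split between these classes. Col15a1, whose protein ties the basement membrane of capillaries to the tissue around it, was 782 and 894 CPM in endothelial-like cells, and its pooled ratio of hormone-free to single-hormone cells was 134 (94.0 to 199). Col13a1, a collagen that spans the cell membrane, was 554 and 615 CPM in endothelial-like cells and had 0 UMIs in the other classes of hormone-free cells. Col18a1, the source of endostatin, was 48.5 and 42.3 CPM in endothelial-like and 187 and 95.8 in mesenchymal-like cells, and 72.7% of its endothelial-like UMIs were in 3 cells. Some fibrillar and collagen VI genes of connective tissue were high in mesenchymal-like cells. There Col1a1 was 236 and 862 CPM, Col1a2 was 2204 and 1677, Col3a1 was 1151 and 2012, and Col6a1 was 531 and 719. Of the 12 endocrine-like cells, 5 had a UMI of Col1a2 and 2 had one of Col1a1. Col6a1 and Col6a2 did not pass the filter on low counts. Col3a1, with 2 UMIs in all single-hormone cells, had a pooled ratio of 308 (83.8 to 2562). It passed that filter through the hormone-free cells alone, as did Col1a1 and Col18a1.

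The matrix genes that were lower in hormone-free cells were both of low level. Col11a2, a fibrillar collagen of cartilage, was 3.77 and 1.85 CPM in hormone-free cells and 20.7 and 16.0 in insulin cells, and the difference from single-hormone cells was -1.65 on the log2 scale (SE 0.53, edgeR adjusted p = 0.013). Col20a1 was 2.51 and 2.32 CPM in hormone-free cells and between 4.30 and 10.3 in the single-hormone sums, with -1.55 (SE 0.50, edgeR adjusted p = 0.013).

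**Figure D2:**
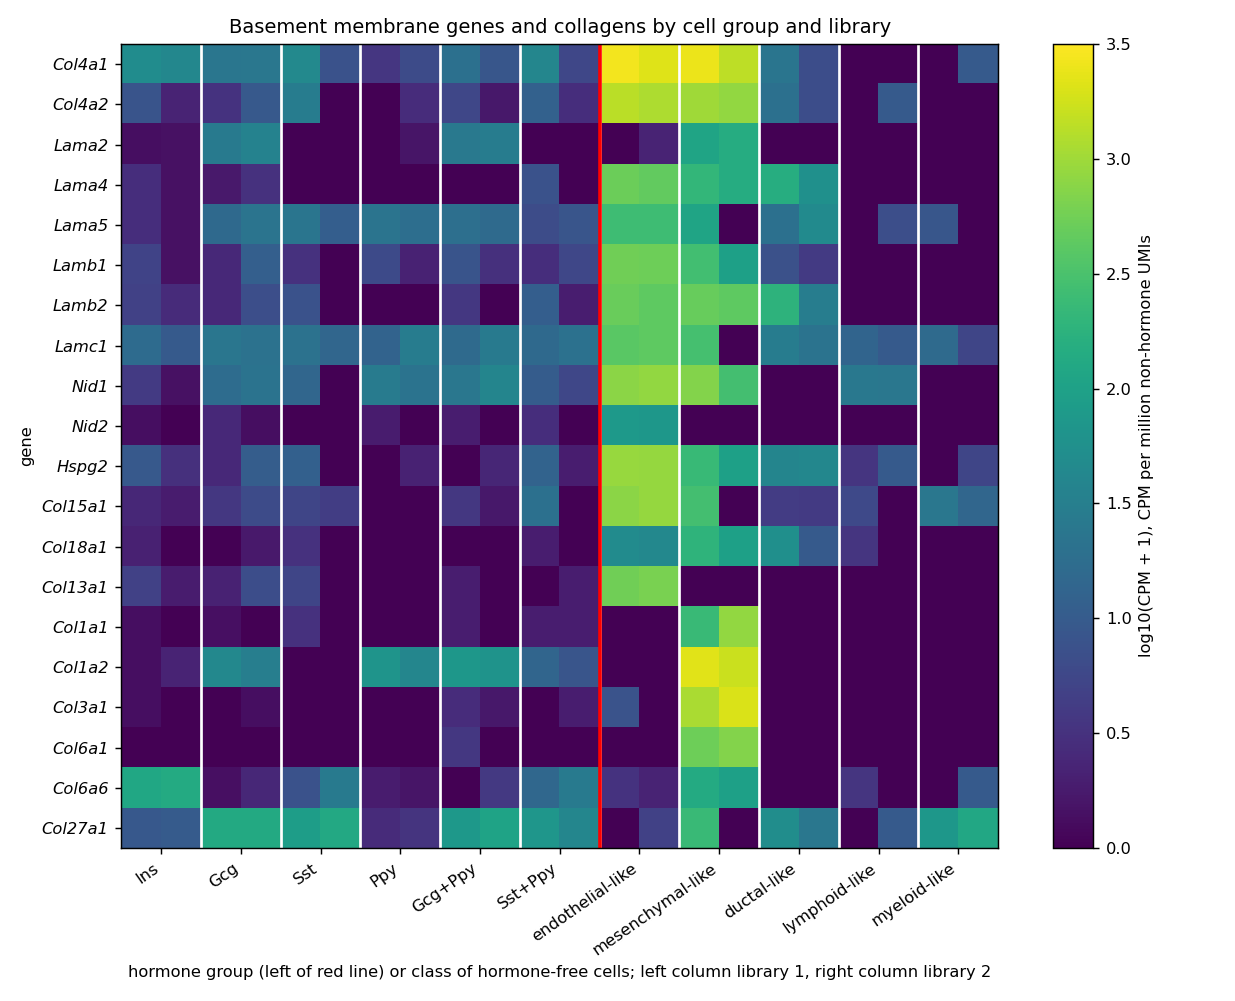
Levels of 20 matrix genes (rows) as log10(CPM + 1), in colour, for 6 hormone groups (left of the red line) and 5 classes of hormone-free cells, with library 1 left and library 2 right in each pair. Basement membrane genes fill the endothelial-like columns, with Col4a1 at 2709 and 2150 CPM, and Col1a1, Col3a1 and Col6a1 fill the mesenchymal-like columns, while Col6a6 and Col27a1 stand out in hormone cells.

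Integrin chains also differed in level between the hormone-free classes. Itga1, which pairs with Itgb1 to bind collagen, was 826 and 668 CPM in endothelial-like and 1073 and 671 in mesenchymal-like cells. Its gene overlaps Pelo and Gm49395 on the same strand. The pooled ratio of hormone-free to single-hormone cells was 92.6 (68.3 to 129). All 60 endothelial-like cells had a UMI of Itga1 and of Itgb1. Itga6, a laminin-binding chain, was 549 and 399 CPM in endothelial-like and 167 and 163 in ductal-like cells, and had 0 UMIs in the mesenchymal-like cells (up to 24.5 CPM). It was higher in hormone-free cells by 2.93 on the log2 scale (SE 0.15, edgeR adjusted p = 8.8e-11). Itgb4, which pairs with Itga6 in the anchors of epithelia, was 81.8 and 69.8 CPM in ductal-like and 32.3 and 51.0 in endothelial-like cells. Of 17 ductal-like cells with a UMI of Itgb4, 15 had one of Itga6. Itga5, the fibronectin-binding chain, was 62.3 and 33.6 CPM in endothelial-like cells and had 1 UMI in all single-hormone cells.

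Smaller integrin sets marked the other classes. Itga7, a laminin-binding chain of muscle, was 157 and 287 CPM in mesenchymal-like cells, from 22 UMIs, and Itga8 had 14 UMIs in all cells, 7 of them there and 6 in myeloid-like cells. Itga3, another laminin-binding chain, was 47.2 and 75.6 CPM in ductal-like cells and between 15.4 and 28.4 in the single-hormone groups. Itga2 was 28.3 and 29.1 CPM in ductal-like cells, but in endothelial-like cells it was 0 in library 1 (up to 6.92 CPM) and 47.3 in library 2, where its 38 UMIs lay in 5 cells. Itgb6, a partner of Itgav in epithelia, was 44.1 and 93.0 CPM in ductal-like cells and had 0 UMIs in all other named classes of hormone-free cells. Itgb3 was 66.9 and 42.3 CPM in endothelial-like and 29.3 and 59.4 in lymphoid-like cells.

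Leukocyte integrins followed the lymphoid-like and myeloid-like cells. Itgal, the alpha chain of LFA-1, was 147 and 172 CPM in lymphoid-like and 108 and 26.8 in myeloid-like cells, and its partner Itgb2 was 113 and 161 and 216 and 143 in the same classes. Of 37 lymphoid-like cells with a UMI of Itgal, 26 had one of Itgb2. Itgb7, which pairs with Itga4 on gut-homing lymphocytes, was 203 and 725 CPM in lymphoid-like cells, and 52.0% of these UMIs were in 3 cells. Itga4 was 328 and 446 CPM there and 193 and 205 in myeloid-like cells, against at most 4.62 in endothelial-like cells. The myeloid-like cells carried Itgax, the CD11c chain of dendritic cells and macrophages, at 440 and 406 CPM, with a UMI in 26 of 27 cells. Its higher level in hormone-free cells was called with edgeR, and the adjusted p was 0.0839 with DESeq2. They also carried Itgam at 77.1 and 93.6, Itga9 at 200.5 and 214, Itgb5 at 316 and 531 and Itgav at 193 and 187. Of 20 myeloid-like cells with a UMI of Itgav, 17 had one of Itgb5. Basement membrane UMIs were few in both classes, with 0.499% and 0.277% of all of them in lymphoid-like and 0.0966% and 0.120% in myeloid-like cells.

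**Figure D3:**
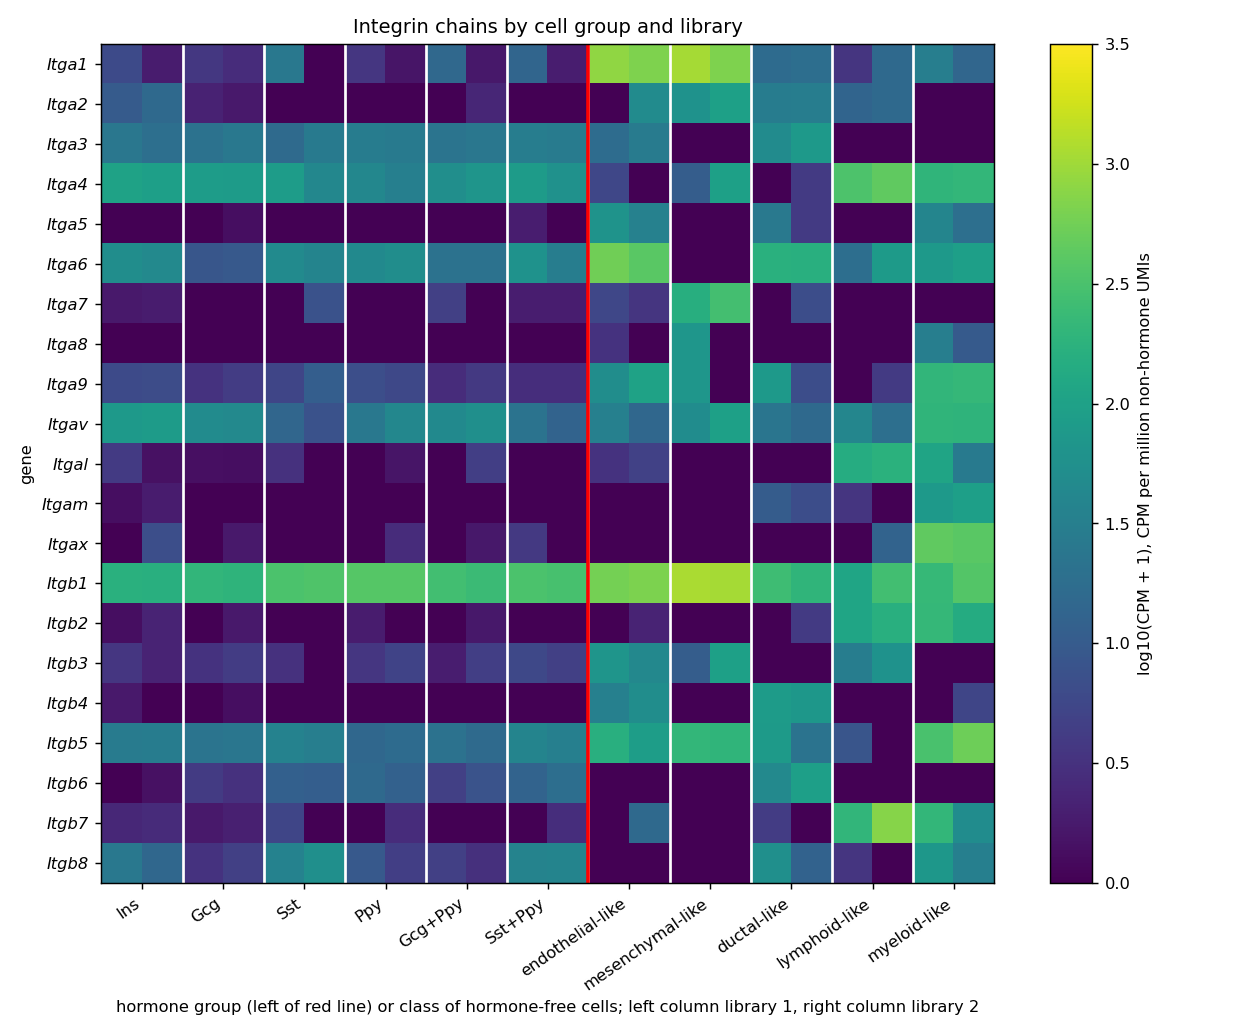
Levels of 21 integrin chains (rows) as log10(CPM + 1), in colour, for 6 hormone groups (left of the red line) and 5 classes of hormone-free cells, with library 1 left and library 2 right in each pair. Itga1 fills the endothelial-like and mesenchymal-like columns, at 826 and 668 CPM in the former, Itgal, Itgb2 and Itgb7 fill the lymphoid-like and myeloid-like columns, and Itgb1 is present in every column.

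In hormone cells most genes of the endothelial-like cells were low, and in somatostatin and glucagon cells some of them were higher in the library with more endothelial markers. The 12 endothelial markers summed to 692 CPM in somatostatin cells of library 1 and 60.3 in library 2. Col4a1 was 43.9 and 6.7 CPM in the same sums, Col4a2 was 28.6 and 0, and Itga1 was 24.2 and 0. Of the 22 Col4a1 UMIs in somatostatin cells, 95.5% were in 3 cells. In glucagon cells it was library 2 that had more, with 77.3 and 281 CPM of endothelial markers, 1.52 and 9.92 of Hspg2, 1.52 and 10.6 of Lamb1, and 87.5% of Hspg2 UMIs in 3 cells. The part of endothelial transcripts in these levels was not tested. Removing the 58 barcodes with markers of unlike cell types, tried as an alternative, ended 1 of 90 calls, that of Nid1 in insulin cells. Only hormone cells with at least 3 different markers of another cell type were removed, so smaller amounts of such transcripts stayed. None of the gene levels just given was a call in its hormone group, so this count of calls does not bear on them.

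Each hormone group was next compared with the mean of the other 3 single-hormone groups. For insulin cells, 9 members were higher, beside 13.8% of all genes tested, and 6 were lower, beside 10.8%. Glucagon cells had 7 higher, beside 9.02%, and 5 lower, beside 7.61%. Somatostatin cells had 6 higher, beside 6.88%, and 1 lower, beside 4.25%. Pancreatic polypeptide cells had 8 higher, beside 6.59%, and 4 lower, beside 3.93%. Each count is out of 60 tested members. Col11a1, counted as higher in pancreatic polypeptide cells, reached 10 UMIs in that group only. Without the members that passed the filter through 1 group only, 4 of 24 matrix genes were higher in pancreatic polypeptide cells and 3 lower. The median log2 fold change over the members was 0.22, 0.55, 0.20 and -0.74 in the same order, and over all genes it lay between -0.02 and 0.03. All 4 comparisons share the same sums, so their counts are not independent. The somatostatin group, with 58 cells, was the smallest, and many of its members had few UMIs.

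Among the single-hormone groups, insulin cells stood out by Col6a6, which encodes a collagen VI alpha chain. It was 122 and 138 CPM in insulin cells of the 2 libraries, 6.59 and 26.8 in somatostatin cells, and at most 1.42 in any glucagon or pancreatic polypeptide sum. The pooled ratio of insulin to the other single-hormone cells was 65.2 (40.9 to 111). A UMI of Col6a6 was found in 65.9% (58.6 to 72.8) and 62.1% (54.8 to 69.0) of insulin cells and in 0.549% and 1.15% of glucagon cells. Over both libraries 9 of 58 somatostatin cells had one, as did 32 of 148 cells with somatostatin and pancreatic polypeptide. Endothelial-like cells, which had 1 cell with a UMI in each library, were at 3.70% and 3.03%, with median depths of 10892 non-hormone UMIs in insulin and 15618 in endothelial-like cells. Thinned to 3000 UMIs a cell, the expected share of insulin cells was 28.3% and 28.9%. Mesenchymal-like cells also carried Col6a6, at 138 and 95.8 CPM, with a UMI in 5 of 9 cells, each of which also had one of Col6a1. In hormone-free against single-hormone cells Col6a6 was not called, with 0.16 on the log2 scale (SE 0.47, edgeR adjusted p = 0.80). The usual partner Col6a1 had 0 UMIs in the 372 insulin cells, which limits the share of cells with a captured UMI to 0.806% and does not limit the share that express it at a low level. Col6a3, another chain of collagen VI, was 12.5 and 8.42 CPM in insulin cells and had 1 UMI in all other single-hormone cells.

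Col4a1 was also detected in insulin cells, at 49.5 and 40.8 CPM, and its pooled ratio to the other single-hormone cells was 2.59 (2.11 to 3.19). It was higher by 1.75 on the log2 scale (SE 0.42, edgeR adjusted p = 0.0049), and the adjusted p was 0.0805 with DESeq2. The endothelial markers in insulin cells summed to 227 and 37.5 CPM. Of the 134 insulin cells with a UMI of Col4a1, 9 had one of Col4a2, whose level in insulin cells was 7.01 and 1.26 CPM. Pancreatic polypeptide cells had 2.58 and 5.28 CPM of Col4a1 and were lower than the other single-hormone cells, with -2.86 (SE 0.68, edgeR adjusted p = 0.011). With equal cell numbers this call was lost, at -1.64 and an edgeR adjusted p of 0.361. Among endothelial-like cells with a UMI of Col4a1, all 60 had one of Col4a2, at far higher levels of both genes.

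**Figure D4:**
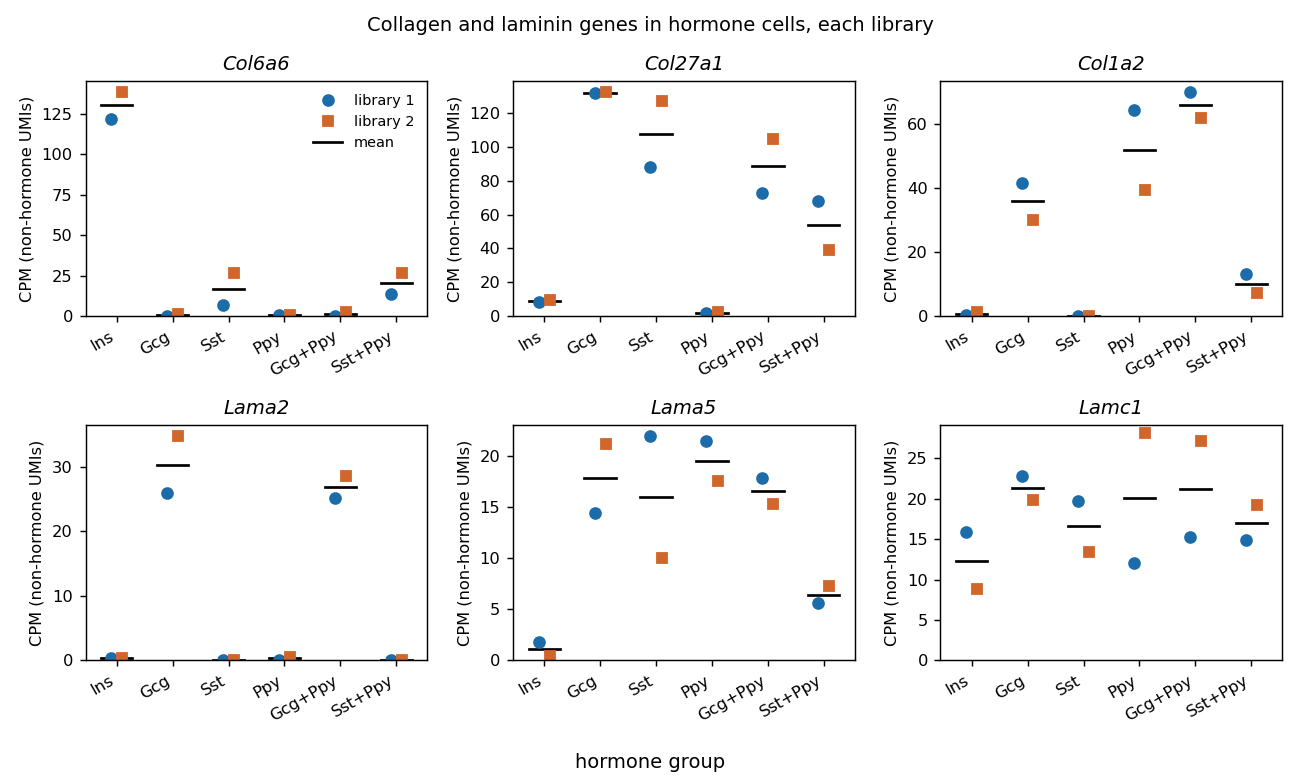
CPM (y axis) of 6 collagen and laminin genes in 6 hormone groups (x axis), with library 1 as circles, library 2 as squares and their mean as a line. Col6a6 was high in insulin cells, at 122 and 138 CPM, Col27a1 in glucagon and somatostatin cells, Col1a2 in glucagon and pancreatic polypeptide cells and Lama2 in glucagon cells, and cells with glucagon and pancreatic polypeptide carried Col27a1, Col1a2 and Lama2.

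Glucagon cells carried Col27a1, a fibrillar collagen of cartilage and developing tissue, and Lama2, the laminin alpha chain of muscle and nerve. Col27a1 was 132 CPM in either library in glucagon cells and 87.9 and 127 in somatostatin cells. It was 8.12 and 9.26 in insulin cells and 1.72 and 2.35 in pancreatic polypeptide cells, so the groups did not overlap. It was higher in glucagon cells by 3.42 on the log2 scale (SE 0.21, edgeR adjusted p = 6e-09), higher in somatostatin cells by 2.84 (SE 0.29, adjusted p = 3.5e-06), and lower in pancreatic polypeptide cells, with -4.50 (SE 0.41, adjusted p = 1.4e-06). A UMI of it was found in 57.1% (49.6 to 64.4) and 59.8% (52.1 to 67.1) of glucagon cells and in 0% and 9.09% of endothelial-like cells. The expected share in glucagon cells thinned to 3000 UMIs was 27.2% and 29.0%.

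Lama2 was 25.9 and 34.7 CPM in glucagon cells, and the other single-hormone cells held 3 UMIs of it together. The pooled ratio was 88.4 (29.7 to 433). A UMI was found in 24.2% (18.1 to 31.1) and 21.8% (15.9 to 28.7) of glucagon cells and in 0.549% and 0.526% of insulin cells. Cells with glucagon and pancreatic polypeptide had 25.1 and 28.5 CPM of Lama2. Cells with somatostatin and pancreatic polypeptide had 0 UMIs of it, which allows up to 1.38 CPM. Col26a1, a collagen of testis and ovary, was 19.4 and 15.2 CPM in glucagon cells and had 0 UMIs in insulin cells, which allows up to 0.590 CPM. Lama2 overlaps Gm36962, and Col26a1 overlaps Gm20485, on the same strand, so that some of these UMIs could belong to either gene of the pair.

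Col1a2, the alpha2 chain of collagen I, was seen in glucagon and pancreatic polypeptide cells, and a UMI of its partner Col1a1 was rarely captured beside it. It was 41.5 and 30.1 CPM in glucagon cells, 64.5 and 39.3 in pancreatic polypeptide cells and 69.9 and 61.9 in cells with both hormones. In insulin cells it was 0.369 and 1.26 CPM, and in somatostatin cells 0 UMIs allow up to 3.98 CPM. Of 86 glucagon cells and 50 pancreatic polypeptide cells with a UMI of Col1a2, 0 had one of Col1a1, whereas among the 9 mesenchymal-like cells with a UMI of Col1a2, 5 had one of Col1a1. Of 56 cells with glucagon and pancreatic polypeptide that had a UMI of Col1a2, 1 had one of Col1a1. Col1a2 was 2204 and 1677 CPM in mesenchymal-like cells, and at the far lower levels of hormone cells joint detection is rare. In endothelial-like cells 0 of 60 had a UMI of Col1a2, which allows a share of up to 5%. The 12 mesenchymal markers summed to 9.90 and 8.15 CPM in glucagon cells and 6.88 and 23.4 in pancreatic polypeptide cells. In cells with both hormones they summed to 86.9 and 11.8 CPM. The part of mesenchymal transcripts in the Col1a2 levels was not tested. Col1a2 overlaps Gm43921 on the same strand.

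Further collagen and laminin calls were of low counts. In pancreatic polypeptide cells Col11a1 was 15.5 and 18.2 CPM against 5 UMIs in all other single-hormone cells, a pooled ratio of 38.6 (15.4 to 124). It passed the filter on low counts through the pancreatic polypeptide cells alone, the group in which it was called. Lama5 was 1.85 and 0.421 CPM in insulin cells, 14.5 and 21.2 in glucagon, 22.0 and 10.1 in somatostatin and 21.5 and 17.6 in pancreatic polypeptide cells. Insulin cells were lower by -3.79 on the log2 scale (SE 0.47, edgeR adjusted p = 1.1e-05), a call lost with equal cell numbers at an edgeR adjusted p of 0.0614. Nid1 was 2.95 and 0.421 CPM in insulin cells, 16.4 and 20.5 in glucagon cells and 27.5 and 20.5 in pancreatic polypeptide cells. Its 3 calls in hormone groups each depended on the settings, with adjusted p of 0.260 in glucagon and 0.117 in pancreatic polypeptide cells with DESeq2, and of 0.0744 in insulin cells with hormones called at 0.5% of UMIs. Col9a2 was 17.6 and 36.9 CPM in somatostatin cells, from 19 UMIs, and between 0.859 and 13.5 in the other single-hormone sums. Its edgeR adjusted p was 0.048, and 0.0547 with the replicate number as a block.

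The shared integrin chain Itgb1 differed between the hormone groups. It was 165 and 163 CPM in insulin cells, 201 and 186 in glucagon cells, 321 and 345 in somatostatin cells and 380 and 373 in pancreatic polypeptide cells, and none of these pairs overlapped. The log2 fold change was -0.75 for insulin (SE 0.11, edgeR adjusted p = 4.7e-05), -0.48 for glucagon (SE 0.10, adjusted p = 0.0036), 0.43 for somatostatin (SE 0.11, adjusted p = 0.020) and 0.80 for pancreatic polypeptide cells (SE 0.10, adjusted p = 3.7e-05). The somatostatin call was lost under 3 alternatives, at an edgeR adjusted p of 0.0937 with no filter on low counts, 0.0666 with hormones called at 0.5% of UMIs and 0.0644 with equal cell numbers. The insulin call was lost with equal cell numbers, at -0.51 and an edgeR adjusted p of 0.0714. Endothelial-like cells were above all of them, at 588 and 638 CPM. A UMI of Itgb1 would be expected in 35.6% and 33.9% of insulin cells and in 66.8% and 65.2% of pancreatic polypeptide cells thinned to 3000 UMIs. Cells with glucagon and pancreatic polypeptide lay between the glucagon cells and the pancreatic polypeptide cells, at 278 and 244 CPM.

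Alpha chains divided the hormone groups in other ways. Itgav, which binds the RGD sites of vitronectin and fibronectin, was 77.9 and 81.3 CPM in insulin cells, 47.2 and 43.2 in glucagon, 24.1 and 41.0 in pancreatic polypeptide and 13.2 and 6.7 in somatostatin cells. It was higher in insulin cells by 1.72 on the log2 scale (SE 0.21, edgeR adjusted p = 8e-06) and lower in somatostatin cells, with -2.32 (SE 0.40, adjusted p = 0.00071). Itga4 was 104 and 92.6 CPM in insulin cells and 40.4 and 31.1 in pancreatic polypeptide cells, with glucagon cells at 85.7 and 83.6 and somatostatin cells at 85.7 and 40.2. It was higher in insulin cells by 0.83 (SE 0.17, edgeR adjusted p = 0.0020) and lower in pancreatic polypeptide cells, with -1.20 (SE 0.22, adjusted p = 0.0014). With equal cell numbers the insulin call of Itga4 was lost, at 0.44 and an edgeR adjusted p of 0.483. Glucagon cells were low in Itga6, at 7.62 and 8.50 CPM, where insulin cells had 50.6 and 43.4, somatostatin cells 46.1 and 36.9 and pancreatic polypeptide cells 44.7 and 51.6. The difference was -2.47 (SE 0.25, edgeR adjusted p = 2.5e-06), and cells with glucagon and pancreatic polypeptide stood between, at 19.7 and 20.2 CPM.

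Beta chains that pair with Itgav had their own pattern. Itgb8, whose pair with Itgav activates latent TGF-beta, was 35.2 and 53.6 CPM in somatostatin cells and 24 and 13.9 in insulin cells, against 2.29 and 3.54 in glucagon cells and 8.59 and 3.52 in pancreatic polypeptide cells. Somatostatin cells were higher by 2.54 on the log2 scale (SE 0.42, edgeR adjusted p = 0.00056) and glucagon cells lower, with -2.46 (SE 0.45, adjusted p = 0.00080). Cells with somatostatin and pancreatic polypeptide had a like level, 35.3 and 37.5 CPM. Itgb6 was 14.6 and 11.1 CPM in pancreatic polypeptide, 11 and 10.1 in somatostatin and 3.05 and 2.12 in glucagon cells, with 1 UMI in all insulin cells. The somatostatin call of Itgb6 had an edgeR adjusted p of 0.038, and 0.0506 with the replicate number as a block. Itgb5 was 27.3 and 28.2 CPM in insulin and 35.2 and 30.2 in somatostatin cells, and its differences did not pass the test in any hormone comparison. Itga2 was 9.23 and 14.7 CPM in insulin cells and had 5 UMIs in the other single-hormone cells, a pooled ratio of 21.4 (8.68 to 68.3). Itga2b, the platelet chain, was 8.38 and 11.3 CPM in glucagon cells against 9 UMIs in the others, a ratio of 9.59 (4.69 to 22.1), and it overlaps Gm23563 on the same strand.

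**Figure D5:**
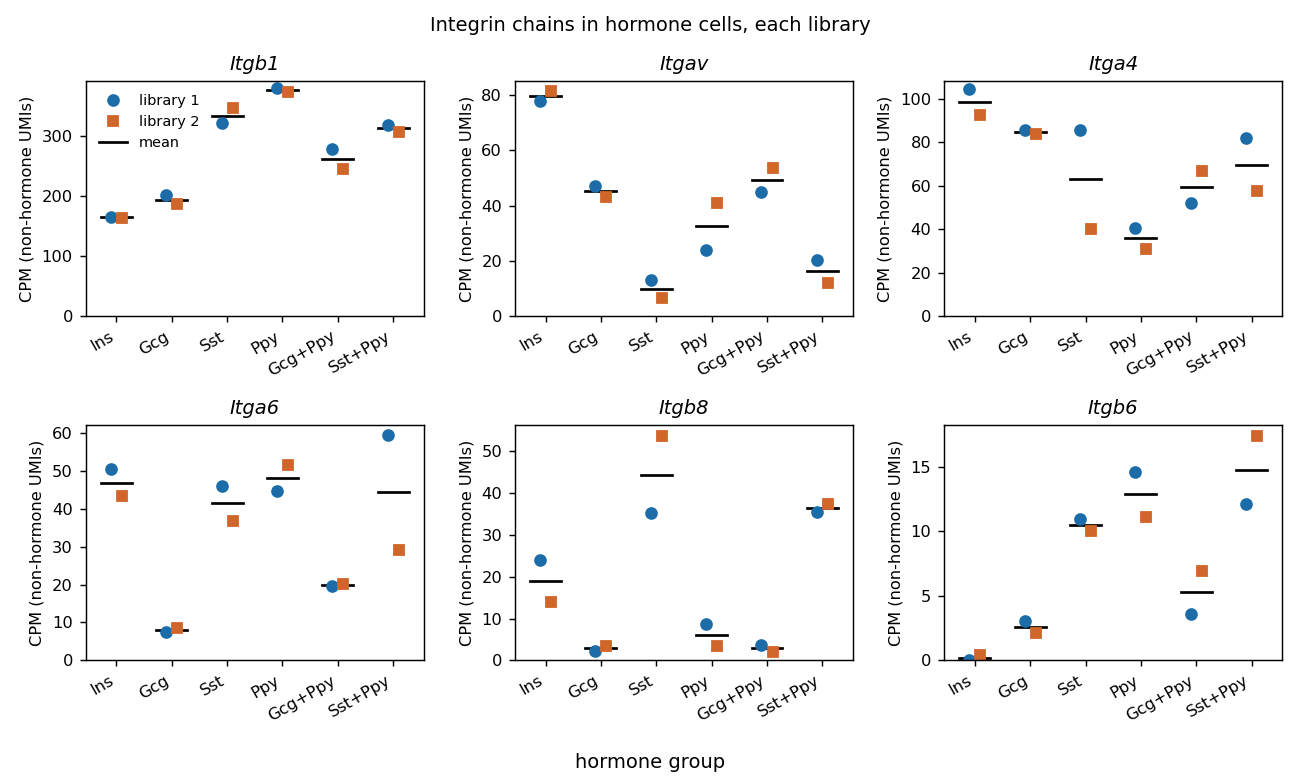
CPM (y axis) of 6 integrin chains in 6 hormone groups (x axis), with library 1 as circles, library 2 as squares and their mean as a line. Itgb1 was lowest in insulin cells, at 165 and 163 CPM, and highest in pancreatic polypeptide cells, at 380 and 373, Itgav was highest in insulin cells, Itga6 was low in glucagon cells and Itgb8 was highest in the groups with somatostatin.

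Of the genes that matched by name alone, 3 were tested. Col4a3bp was 155 and 160 CPM in insulin, 126 and 126 in glucagon, 275 and 231 in somatostatin and 177 and 199 in pancreatic polypeptide cells, and 120 and 94.0 in hormone-free cells, where it was lower by -0.59 on the log2 scale (SE 0.13, edgeR adjusted p = 0.0011). Col4a3bp was also called lower in glucagon and higher in somatostatin cells, and it is part of the counts of members for both. The somatostatin call had an edgeR adjusted p of 0.012. It was lost with hormones called at 0.5% or 2% of UMIs, at 0.0538 and 0.0735, and with equal cell numbers, at 0.119. Itgb1bp1 and Itgb3bp were not called in any comparison.

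Genes outside the members that make, modify or read the matrix were described from 5 lists, with 71 of 72 genes in the tables. Of all genes tested 34.9% were higher in hormone-free cells and 25.5% lower, against which the lists are to be read. Of 16 listed other matrix genes, 10 passed the filter on low counts, and all 10 were higher. As among the members, the filter itself can favour such a result in each list. How many listed genes passed through 1 group only was not counted. Among the 10 was Sparc, a collagen-binding glycoprotein, at 5578 and 4189 CPM in endothelial-like cells. Agrn, a heparan sulfate proteoglycan of basement membranes, was 141 and 116 CPM there. Of 12 tested genes of collagen making, 5 were higher, near the share over all genes, and 1 was lower, under that share. Of 7 tested proteases and inhibitors 6 were higher and 0 lower, of 14 integrin adaptors 13 were higher and 0 lower, and of 11 other matrix receptors 7 were higher and 2, Ddr1 and Sdc2, were lower. Adaptors also differed between classes. Fermt3, the kindlin of blood cells, was 176 and 163 CPM in lymphoid-like and 231 and 214 in myeloid-like cells, whereas Fermt2 was 545 and 362 in endothelial-like cells and 0 and 5.94 in lymphoid-like cells.

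The lists were also tested in the hormone groups. Of 12 tested genes of collagen making, 2, Loxl2 and P4hb, were higher in insulin cells and 3 lower. The shares over all genes tested were 13.8% and 10.8%. In pancreatic polypeptide cells 4 were higher and 0 lower, beside 6.59% and 3.93% of all genes. Serpinh1, the chaperone that collagens need to fold, was 3.32 and 3.37 CPM in insulin cells, 27 and 41.8 in glucagon cells, 33.0 and 13.4 in somatostatin cells and 51.6 and 68.0 in pancreatic polypeptide cells. It was lower in insulin cells, with -3.38 on the log2 scale (SE 0.43, edgeR adjusted p = 1.6e-05), and higher in pancreatic polypeptide cells by 2.09 (SE 0.30, adjusted p = 0.00015). Of 11 other matrix receptors, 5 were lower in insulin cells and 2 higher, beside 10.8% and 13.8% of all genes tested. Among the receptors was Bcam, which binds the Lama5 chain, at 12.2 and 4.21 CPM in insulin, 23.2 and 19.8 in glucagon, 79.1 and 73.8 in somatostatin and 32.7 and 33.4 in pancreatic polypeptide cells. Bcam was higher in somatostatin cells by 1.97 (SE 0.32, edgeR adjusted p = 0.00044). Cd44, a hyaluronan receptor, was 64.2 and 61.9 CPM in insulin and 176 and 171 in somatostatin cells, against 0.762 and 1.77 in glucagon and 7.73 and 9.38 in pancreatic polypeptide cells.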

How the data were processed

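RevGel-seq libraries of mouse islet cells were analysed from the UMI counts per gene and cell that the authors deposited. According to the study's methods, the authors called cell barcodes by the UMI-tools knee, aligned reads to exons of GRCm38 and removed duplicate molecules with their Cytonaut pipeline. The strand setting of the counting is not given in the sources used here. No barcode was removed, and the libraries shared 0 barcodes. Scrublet (scanpy 1.11.5) called 8 cells in each library, which were removed as an alternative.

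UMIs were summed per hormone group and library (8 groups, 16 sums). The 5 hormone genes were left out, and the sums were fitted with edgeR 4.0.16 in R 4.3.3 (TMM, filterByExpr, quasi-likelihood test, Benjamini-Hochberg adjustment over 14482 genes, threshold 0.05). Standard errors are the log2 fold change divided by the square root of F. Libraries are technical replicates, so p-values measure only the spread between them. An exact permutation test of 2 against 2 sums cannot go below p = 0.333. For some members with few UMIs in a compared group, ratios of pooled CPM with exact 95% counting intervals are given, in place of the edgeR values or beside them. For others with few UMIs, such as Itgb6, edgeR values are given. A count of 0 was read as at most 3 UMIs. Classes of hormone-free cells needed at least 3 different markers of a list and 2 times the UMIs of the next list, a rule set after the data were seen, and 10 cells lay near its limits. Shares of cells after thinning are expected values at 3000 non-hormone UMIs a cell, and no cell was shallower. Intervals and floors cover counting error only.

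Values are given for a fixed set of basement membrane genes and integrins, and in each comparison for the 5 called members with the largest change in each direction. Others were named after their values were seen. The members and lists were chosen with earlier results of these data known. The differences between the libraries were compared between groups, and their correlations over 28 pairs of groups lay between -0.03 and 0.09. The fit was tested on simulated data. Alternatives were DESeq2 1.42.0, other hormone thresholds (0.5% and 2%), equal cell numbers, no count filter, hormone genes kept, a replicate block, each library left out, and removal of mixed barcodes. Added after seeing the data were joined somatostatin groups, pooled single-hormone cells and hormone-free cells without endocrine-like and unassigned cells.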

Additional observations from a re-analysis of the deposited data

How the results depend on the processing

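Of 91 calls of members in the 5 comparisons, 0 changed direction under the alternatives run. With equal cell numbers (23 cells per sum), called members fell from 45 to 28 in hormone-free, from 15 to 4 in insulin, from 12 to 6 in glucagon, from 7 to 4 in somatostatin and from 12 to 5 in pancreatic polypeptide cells. Fewer cells and genes entered that fit, which could be run for 60 of the 91 calls. In somatostatin cells 4 were called with hormones at 0.5% of UMIs, 12 at 2%, and 13 with the somatostatin groups joined, an alternative chosen after seeing the data; the cause was not tested. DESeq2 lost 7 calls, the 0.5% threshold 11, and hormone genes kept lost 0. With either library left out no residual degrees of freedom remain, so no test was run, and 0 of 91 fold changes changed sign. The matrix share of hormone-free cells ranged from 64.9% to 71.6% and their integrin share from 33.2% to 41.0% between single libraries.

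Sums with the same replicate number come from the same library. The differences between the libraries were little shared by the hormone groups, since 0 of 28 correlations were over 0.1. With the replicate block, somatostatin cells had 5 called members, Itgb6 and Col9a2 being lost, and 89 of 91 calls passed.

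Shares of cells with a UMI depended on depth. Thinned to 3000 UMIs, to 2000 UMIs and not thinned, the mean share was 96.9%, 94.53% and 100% for Col4a1 in endothelial-like cells, 66.01%, 52.14% and 97.41% for Itgb1 in pancreatic polypeptide cells, 28.6%, 20.82% and 64.02% for Col6a6 in insulin cells, and 28.11%, 20.8% and 58.46% for Col27a1 in glucagon cells. The 9 mesenchymal-like cells and 58 somatostatin cells limit what can be said of those groups.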
